A study of Homo sapiens with 4 samples.

Results

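The genes of the tumor necrosis factor (TNF) superfamily, its receptors and the proteins that carry their signals inside the cell were examined in U87MG cells, an established human glioblastoma line, with and without knockdown of *KDM2B*, which encodes a histone demethylase. Members were chosen by symbol alone. They are all genes of the table named TNFSF, TNFRSF or TRAF1 to TRAF7, without antisense and divergent transcripts, together with *TNF*, *FAS*, *LTBR*, *CD40*, *CD70*, *FADD*, *TRADD*, *RIPK1*, *CFLAR*, *CASP8* and *CASP10*. This gave 44 of the 22578 genes in the table. By role they are 11 ligands, 6 receptors with a death domain, 4 decoy receptors, 9 receptors without a death domain, 7 TRAF adaptors, 6 death domain adaptors, kinases and caspases, and 1 readthrough row, *TNFSF12-TNFSF13*. Of the other family genes, *FASLG*, *TNFSF11*, *TNFSF18*, *TNFRSF4*, *TNFRSF13B*, *TNFRSF13C*, *TNFRSF17* and *TNFRSF18* have no row here and were not analysed.

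Both groups were U87MG cells at passage 8, transduced with a retroviral hairpin, selected in puromycin (1 µg/ml) and collected at day 9. The hairpin was directed at firefly luciferase in the group called shControl and at *KDM2B* in the group called shKDM2B. Each group had 2 libraries of polyadenylated RNA. The study terms them biological replicates but does not describe how they were made separately, and p-values here reflect the spread between the libraries alone, which can be technical. The study used hairpins numbered 1 and 2 against *KDM2B*, and the shKDM2B libraries bear the same numbers. The sources used here do not give which hairpin each library carries.

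Ligands of the TNF superfamily are membrane-bound or shed trimers that cluster their receptors on the same or a neighboring cell. Receptors with a death domain, such as those for TRAIL, TNF and FAS ligand, assemble FADD, TRADD, RIPK1 and caspase-8 and can start apoptosis, whereas most of the others bind TRAF proteins and feed the NF-κB and JNK pathways. Decoy receptors bind the ligand without passing on the death signal. Most ligands and costimulatory receptors of the family are best known from lymphocytes and antigen-presenting cells. TRAIL and its receptors are well known from studies of glioma cell death.

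The libraries held 30470803 to 33770421 counts. *KDM2B* itself had counts of 1257 and 1253 in the controls against 520 and 465 after knockdown, a log2 fold change of -1.60 (SE 0.06, adjusted p = 3.38e-19, edgeR). Here and below, fold changes are shKDM2B over shControl from edgeR's quasi-likelihood test on raw counts. P-values were adjusted by the Benjamini-Hochberg method over 21783 genes, those whose mean count reached 10 in either group, and a gene was called at an adjusted p of at most 0.05 and at least a 1.5-fold change. Levels are CPM, that is counts per 1000000 counts of the library after TMM scaling, given as mean ± SD with n = 2 libraries. Among markers, *VIM* and *CD44* were abundant, *S100B* and *AQP4* have no row here, and *GFAP* was low at 68 to 77 counts in shControl and 168 to 172 in shKDM2B. The summed level of the 6 astrocyte and glioma markers with a row was 6319 to 6418 CPM in shControl and 3676 to 3687 CPM in shKDM2B. Nearly all of that sum was *VIM* and *CD44*, both called lower (log2 fold changes -0.83 and -0.74). Within the same list *GFAP* was called higher (0.98), *SLC1A3* (0.27) and *NES* (-0.18) were not called, and *FABP7* was not tested.

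Of the 43 members tested, 9 were called higher in shKDM2B and 3 lower, beside 13.3% and 6.79% of all genes tested. The members' shares were 20.9% and 6.98%. The genes called higher were the ligands *TNFSF9*, *CD70* and *TNFSF13B*, the death receptor *TNFRSF10A*, the decoy receptors *TNFRSF10C* and *TNFRSF11B*, and the receptors *TNFRSF9*, *TNFRSF14* and *LTBR*. The genes called lower were the ligand *TNFSF8*, the receptor *TNFRSF1B* and the adaptor *TRAF3*. At these thresholds all 9 higher genes encode ligands or receptors. The 19 receptors had 6 genes higher and 1 lower with a median log2 fold change of 0.21, and the 13 intracellular members had none higher and 1 lower with a median of 0.05. By the adjusted p alone, 4 intracellular members were higher and 3 lower, and 9 receptors were higher and 2 lower. The shares of all genes by that measure were 28.4% and 29.5%.

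Over all tested members the median log2 fold change was 0.09, beside 0.01 over all genes. With the adjusted p alone, 16 members were higher and 7 lower, beside 28.4% and 29.5% of all genes. The CPM of both shKDM2B libraries lay above both shControl libraries for 21 members and below them for 10, beside 39.4% and 38.2% of all genes, and the groups overlapped for 12. When levels were centred on 82 ribosomal protein genes in place of TMM, 17 members were called higher and 2 lower, and the median of all genes moved from 0.01 to 0.36. The share of higher genes among all called genes then rose from 66.1% to 93.0%.

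**Figure D1:**
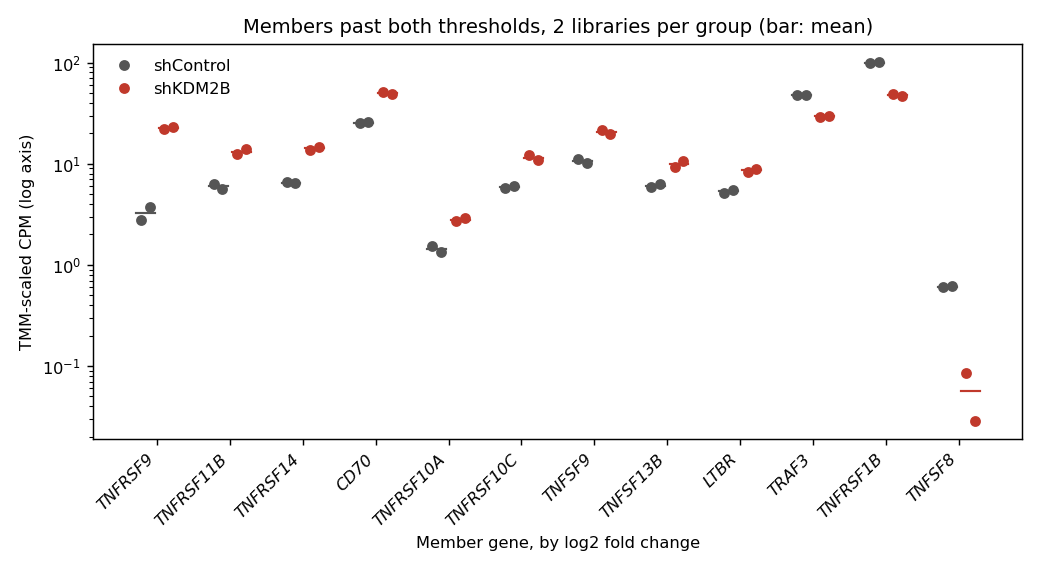
CPM (TMM scaled, log axis) of the 12 members called between groups, with 1 point for each library and a bar at each group mean. The 2 points of a group never reach those of the other group, which the choice of called genes favors. Of all genes tested, 39.4% were likewise higher and 38.2% lower without overlap. The widest gaps are those of *TNFRSF9* and *TNFSF8*.

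Among the ligands, *TNFSF9*, *CD70* and *TNFSF13B* rose and *TNFSF8* fell. *TNFSF9* encodes 4-1BB ligand, a costimulator of T cells. It was read 337 and 295 times in shControl libraries and 759 and 692 times in shKDM2B libraries. The level was 10.7 ± 0.769 CPM in shControl and 20.7 ± 1.18 CPM in shKDM2B, a log2 fold change of 0.95 (SE 0.08, adjusted p = 2.43e-11). Both shKDM2B libraries were far above both shControl libraries.

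*CD70*, the ligand of CD27 on lymphocytes, was the most abundant ligand. It drew 753 and 748 counts under shControl but 1791 and 1703 under shKDM2B. The level went from 25.4 ± 0.441 to 49.8 ± 1.36 CPM, a log2 fold change of 0.97 (SE 0.05, adjusted p = 1.24e-16). Both libraries of each group lay close together and the groups were well apart. *TNFSF13B* encodes BAFF, a survival factor of B cells. Its 2 control libraries held 176 and 183 counts and its 2 shKDM2B libraries 331 and 370, with a level of 6.07 ± 0.301 and 9.99 ± 0.869 CPM and a log2 fold change of 0.72 (SE 0.11, adjusted p = 1.24e-06). The shKDM2B libraries were again the higher ones, without overlap.

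*TNFSF8* encodes CD30 ligand. It had 18 counts in each shControl library and 3 and 1 in the shKDM2B libraries. The fitted log2 fold change was -3.33 (SE 0.59, adjusted p = 2e-05). With so few counts the ratio is better read with its counting interval. It was 10.7 in favor of shControl (exact 95% interval 3.83 to 41.3), 21.2 (3.58 to 862) without shKDM2B 1 and 7.17 (2.26 to 36.4) without shKDM2B 2. Intervals on counts cover counting error only. The gene was low in shKDM2B in each of these, and the size of the difference was poorly fixed.

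Of the ligands that were not called, *TNF* itself was barely detected, with 8 and 12 counts in shControl and 6 in each shKDM2B library (log2 fold change -0.97, 95% interval -2.08 to 0.14, adjusted p = 0.129). *TNFSF10*, which encodes TRAIL, had 8 and 10 counts in shControl and 16 in each shKDM2B library (0.58, adjusted p = 0.255). The counts of both genes were separate between groups, but neither difference was detectable as a call at this depth. *TNFSF15*, the TL1A ligand of death receptor 3, passed the adjusted p but not the fold threshold (-0.48, adjusted p = 0.00385). It did not pass the adjusted p in the DESeq2 Wald test (0.0879). *TNFSF13*, which encodes APRIL and shares 55.5% of its exonic bases with other genes, *TNFSF14*, which encodes LIGHT, and *TNFSF12*, which encodes TWEAK, had log2 fold changes of 0.30, 0.20 and -0.02 and passed neither threshold. The rows of *TNFSF12* and of the readthrough *TNFSF12-TNFSF13* hold the same counts in every library, so they are 1 measurement listed under both names. *TNFSF4*, which encodes OX40 ligand, was below the count minimum and was not tested. It had counts of 1 and 4 in the controls against 8 and 11 after knockdown, a ratio of 3.20 (exact 95% interval 1.16 to 11) that was 8.13 (1.29 to 338) without shControl 2 and 1.97 (0.654 to 7.96) without shControl 1.

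**Figure D2:**
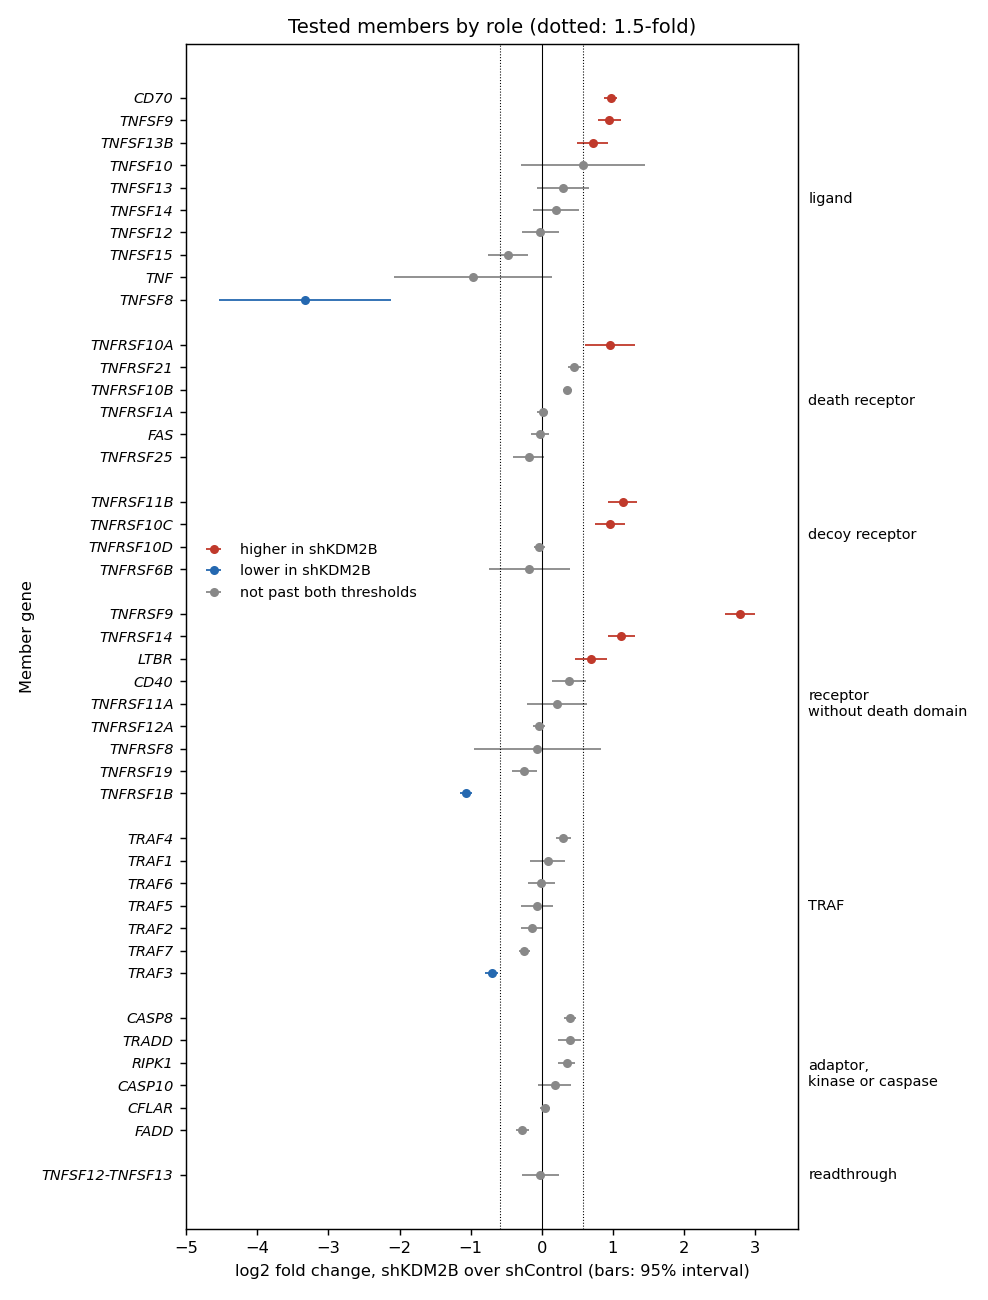
Log2 fold change of the 43 tested members (shKDM2B over shControl) with 95% intervals from the edgeR fit, grouped by role, with called genes in color and the 1.5-fold limits as dotted lines. The called genes lie among ligands and receptors except *TRAF3*, which no longer reached 1.5-fold when levels were centred on ribosomal protein genes, and *TNFSF8* has the widest interval of the 12 called genes.

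Of the 6 receptors with a death domain, *TNFRSF10A* was called. It encodes TRAIL receptor 1 (DR4). It was read 46 and 39 times in shControl libraries and 96 and 101 times in shKDM2B libraries, with a level of 1.44 ± 0.136 and 2.81 ± 0.124 CPM and a log2 fold change of 0.96 (SE 0.17, adjusted p = 2.32e-05). Its groups did not overlap, and 16.7% of its exonic bases are shared with neighboring noncoding genes. *TNFRSF10B*, which encodes TRAIL receptor 2 (DR5), was far more abundant, at 5926 and 5996 counts in the controls against 9180 and 8989 after knockdown. All its shKDM2B values were higher, but the log2 fold change of 0.36 (95% interval 0.30 to 0.42, adjusted p = 4.22e-11) was under 1.5-fold.

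*TNFRSF21*, which encodes death receptor 6, was also past the adjusted p only, at 0.46 (adjusted p = 6.71e-10). *FAS*, *TNFRSF1A*, which encodes the main receptor of TNF, and *TNFRSF25*, which encodes death receptor 3, had log2 fold changes of -0.02, 0.01 and -0.19 with adjusted p of 0.744, 0.773 and 0.144. The 95% interval of *TNFRSF1A* ran from -0.06 to 0.09. Of the exonic bases of *FAS*, 25.7% are shared with an antisense gene or *ACTA2*.

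The decoys were split. *TNFRSF11B* encodes osteoprotegerin, a secreted decoy that binds RANK ligand and TRAIL. It drew 189 and 165 counts under shControl but 441 and 485 under shKDM2B, with 5.98 ± 0.442 and 13.2 ± 0.997 CPM and a log2 fold change of 1.14 (SE 0.10, adjusted p = 1.16e-10). *TNFRSF10C*, the lipid-anchored TRAIL decoy DcR1, had counts of 171 and 177 in the controls against 429 and 377 after knockdown, with 5.89 ± 0.273 and 11.5 ± 0.951 CPM and a log2 fold change of 0.96 (SE 0.10, adjusted p = 4.88e-09). Both genes were higher in each shKDM2B library than in either control, and 33.0% of the exonic bases of *TNFRSF10C* overlap unnamed genes. The most abundant decoy, *TNFRSF10D* (DcR2), was read 2870 and 2912 times in shControl libraries and 3321 and 3386 times in shKDM2B libraries, and after scaling its log2 fold change was -0.03 (95% interval -0.11 to 0.04, adjusted p = 0.455). The soluble decoy *TNFRSF6B* (DcR3), with 22 to 39 counts and all its exonic bases within a readthrough gene, had -0.17 (adjusted p = 0.619).

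The receptors without a death domain held the largest rise of all members and 1 of the 3 falls. *TNFRSF9* encodes 4-1BB (CD137), the receptor of the *TNFSF9* product. It drew 84 and 109 counts under shControl but 772 and 813 under shKDM2B. The level went from 3.27 ± 0.670 to 22.6 ± 1.02 CPM, a log2 fold change of 2.79 (SE 0.10, adjusted p = 8.78e-19) or 6.91-fold, which ranked 170 by log2 fold change among all genes tested. The lowest shKDM2B library had several times the counts of the highest control, and the log2 fold change stayed between 2.59 and 3.01 with any 1 library left out. *TNFRSF14*, the HVEM receptor of LIGHT, had counts of 199 and 186 in the controls against 483 and 511 after knockdown, with 6.51 ± 0.167 and 14.2 ± 0.683 CPM and a log2 fold change of 1.12 (SE 0.09, adjusted p = 4.49e-11). Of its exonic bases 13.3% are shared with *TNFRSF14-AS1*. *LTBR*, the lymphotoxin β receptor, which also binds LIGHT, was read 156 and 160 times in shControl libraries and 292 and 313 times in shKDM2B libraries, with 5.35 ± 0.214 and 8.62 ± 0.495 CPM and a log2 fold change of 0.69 (SE 0.11, adjusted p = 3.93e-06). Neither gene had overlapping groups.

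In contrast, *TNFRSF1B*, which encodes TNF receptor 2, fell. It drew 2971 and 2957 counts under shControl but 1717 and 1645 under shKDM2B. The level went from 100.3 ± 1.88 to 47.9 ± 1.05 CPM, a log2 fold change of -1.07 (SE 0.04, adjusted p = 8.57e-19). Both shKDM2B libraries were far below the controls, and the gene also fell when levels were centred on ribosomal protein genes (-0.72). Of the others, *CD40* was past the adjusted p only (0.38, adjusted p = 0.00636), as was *TNFRSF19* (-0.24, adjusted p = 0.0185), whose sign turned to 0.10 with ribosomal centring. Neither passed the adjusted p in the DESeq2 Wald test (0.0879 for *CD40* and 0.121 for *TNFRSF19*). *TNFRSF11A* (RANK), *TNFRSF12A* (the TWEAK receptor Fn14) and *TNFRSF8* (CD30) had 0.21, -0.04 and -0.06 with adjusted p of 0.413, 0.454 and 0.914.

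The promoter windows of the 2 called-higher receptors that hold an NF-κB motif are shown, since several family genes are known NF-κB targets, with that of *TNFRSF1B* for the receptor that fell. They are the 250 bases before the start in RefSeq on GRCh38.p14, 5′ to 3′ on the strand of the gene. Capitals mark the NF-κB motif in *TNFRSF9* (chr1:7940840-7941089, minus strand) and *TNFRSF14* (chr1:2556121-2556370, plus strand), and each CG in *TNFRSF1B* (chr1:12166741-12166990, plus strand).
TNFRSF9: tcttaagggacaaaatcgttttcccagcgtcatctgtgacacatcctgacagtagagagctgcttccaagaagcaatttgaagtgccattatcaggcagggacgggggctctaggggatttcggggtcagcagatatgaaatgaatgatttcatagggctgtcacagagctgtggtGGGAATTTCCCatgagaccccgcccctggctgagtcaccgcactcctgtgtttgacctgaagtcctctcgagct
TNFRSF14: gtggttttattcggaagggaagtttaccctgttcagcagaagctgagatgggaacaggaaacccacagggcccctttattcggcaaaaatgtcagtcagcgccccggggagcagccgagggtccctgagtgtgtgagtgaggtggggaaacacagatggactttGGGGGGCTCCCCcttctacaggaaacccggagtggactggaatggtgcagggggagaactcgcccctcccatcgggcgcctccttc
TNFRSF1B: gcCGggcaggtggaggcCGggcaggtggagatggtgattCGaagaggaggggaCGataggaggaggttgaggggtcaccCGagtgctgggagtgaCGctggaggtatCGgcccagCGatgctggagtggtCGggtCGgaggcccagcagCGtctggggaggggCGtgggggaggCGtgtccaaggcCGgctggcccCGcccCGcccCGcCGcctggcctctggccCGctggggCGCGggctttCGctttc

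The motif in *TNFRSF9* reads GGGAATTTCCC and that in *TNFRSF14* GGGGGGCTCCCC. The windows of these genes hold 7, 9 and 22 CG dinucleotides. RefSeq promoters were matched for 31 of the 44 members, with 5 of the 9 higher and 2 of the 3 lower genes among them. The NF-κB motif was searched by its consensus on both strands, with overlapping matches merged. It occurred in 9 of the 48 promoters of members (18.8%), beside 9.96% of all 35116 promoters of that length. By gene it occurred in 8 of the 31 matched members. Windows of the same gene can overlap, as those of *TNFSF14* do, so a site can be counted more than once. Among promoters of called genes the NF-κB motif occurred in 2 of 6 of the higher and 1 of 2 of the lower ones, beside 6 of 39 (15.4%) for members not called. An AP-1 motif, TGANTCA on both strands, occurred in 7 of the 48 (14.6%), beside 6.57% of all promoters. The median number of CG dinucleotides was 9.5 in members and 11 in all promoters. A match describes the letters in the window and does not show that a factor binds there.

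Of the 7 TRAF genes, *TRAF3* was called. TRAF3 is an adaptor that keeps the noncanonical NF-κB kinase NIK at a low level in resting cells. The gene had counts of 1447 and 1382 in the controls against 1026 and 1034 after knockdown, with 47.8 ± 0.499 and 29.3 ± 0.407 CPM and a log2 fold change of -0.70 (SE 0.04, adjusted p = 4.84e-14). Both groups were tight and apart, but with ribosomal centring the log2 fold change was -0.36, less than 1.5-fold. The *TRAF3* promoter (chr14:102777199-102777448 of GRCh38.p14, plus strand) has 51 CG dinucleotides in 250 bases, the most of the 48 member windows, and is shown for that with each CG in capitals. It also holds a match to the NF-κB motif.
TRAF3: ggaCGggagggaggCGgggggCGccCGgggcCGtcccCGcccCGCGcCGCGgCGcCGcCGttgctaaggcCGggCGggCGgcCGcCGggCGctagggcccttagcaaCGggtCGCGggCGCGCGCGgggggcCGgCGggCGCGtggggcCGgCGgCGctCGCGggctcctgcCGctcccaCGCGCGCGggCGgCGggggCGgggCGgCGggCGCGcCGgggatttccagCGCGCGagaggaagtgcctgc

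*TRAF4* and *TRAF7* passed the adjusted p without reaching 1.5-fold, with log2 fold changes of 0.31 (adjusted p = 2.07e-05) and -0.24 (adjusted p = 5.32e-06), of which that of *TRAF7* became 0.10 with ribosomal centring. *TRAF1*, *TRAF2*, *TRAF5* and *TRAF6*, which link receptors to NF-κB and MAP kinases, had 0.09, -0.13, -0.07 and -0.00 with adjusted p of 0.559, 0.139, 0.621 and 0.975. None of the 6 death domain adaptors, kinases and caspases was called. *CASP8*, the initiator caspase of the death receptors, had 0.40 (adjusted p = 6.22e-09), *TRADD* 0.39 (9.55e-05) and *RIPK1* 0.35 (1.02e-05), all past the adjusted p only. *FADD*, which bridges receptor and caspase-8, had -0.27 (adjusted p = 5.95e-06), or 0.07 with ribosomal centring, and 59.2% of its exonic bases are shared with other genes. *CFLAR*, whose product c-FLIP blocks caspase-8, had 0.05 (adjusted p = 0.247) and *CASP10* 0.18 (adjusted p = 0.179).

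Levels were compared between genes per kilobase of exon, over all exons of all isoforms. In shControl, 8 members exceeded 10 CPM per kb. These were *TNFRSF12A* at 55.4 ± 2.91, *TNFRSF10B* at 40.2 ± 1.22, *TNFRSF10D* at 27.7 ± 0.895, *TNFRSF1B* at 26.5, *FADD* at 23.6 ± 0.717, *TNFRSF1A* at 20.9 ± 0.455, *CD70* at 16.6 and *TRAF7* at 15.7 ± 0.356 CPM per kb. The most abundant members were thus receptors of TWEAK, TRAIL and TNF. Another 17 members were under 1 CPM per kb, among them 3 of the genes called higher, *TNFRSF9*, *TNFRSF10A* and *LTBR*. The lowest were *TNFSF10* at 0.0886 and *TNFSF4* at 0.0215 CPM per kb. Of the 43 pairs that are neighbors in this order, 18 had overlapping libraries, including *TNFRSF9* with *TNFSF14* and *TNFSF15*. CPM sums over cells, so a lower level in each cell and fewer cells with the RNA cannot be told apart.

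**Figure D3:**
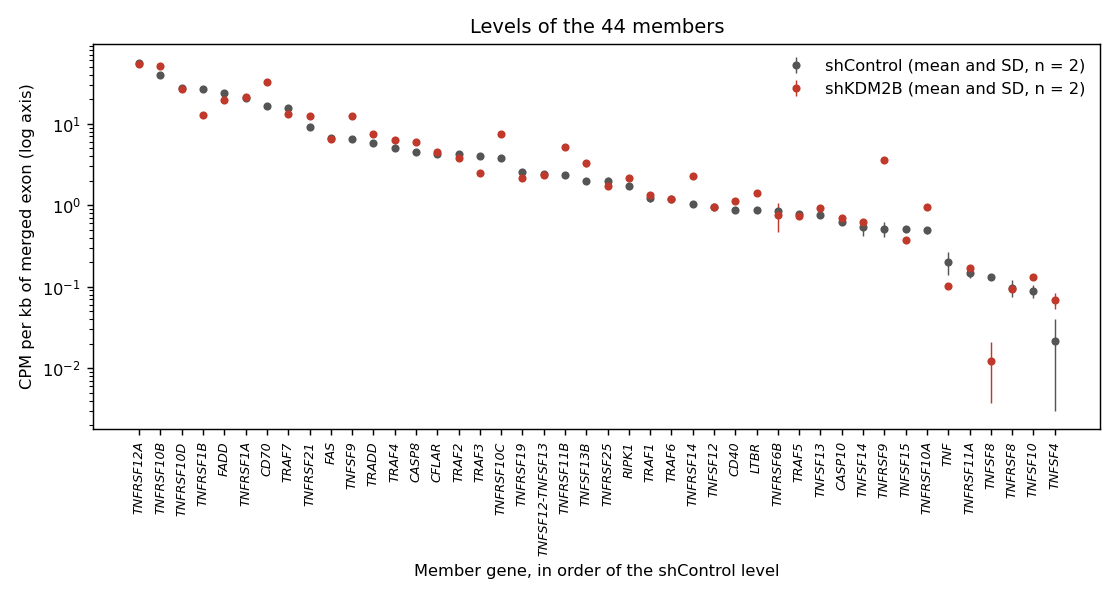
Level of each member in CPM per kb of exon (log axis) in shControl and shKDM2B, ordered by shControl, with points at the mean and bars of 1 SD over 2 libraries. *TNFRSF12A* is at the top with 55.4 in shControl and *TNFSF4* at the bottom with 0.0215, and *TNFRSF9* and *TNFSF8* stand out by the distance between their groups.

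Many members lie next to relatives in the genome, and neighbors within 500 kb were set side by side on GRCh37. On chromosome 19, *TNFSF9* (6531037-6535935) and *CD70* (6583194-6604114) had log2 fold changes of 0.95 and 0.97, and *TNFSF14*, in the same 140 kb, had 0.20. On chromosome 9, *TNFSF8* (117655623-117692875) and *TNFSF15* had -3.33 and -0.48. On chromosome 12, *LTBR* (6484211-6500737) had 0.69 and *TNFRSF1A* 0.01. On chromosome 17, *TNFSF12* and *TNFSF13* had -0.02 and 0.30. Neighbors thus had both like and unlike values, and the differences between them were not tested. The TRAIL receptors lie within 205 kb of chromosome 8 in the order *TNFRSF10B*, *TNFRSF10C* (22960434-22974958), *TNFRSF10D* and *TNFRSF10A* (23047965-23082615), with log2 fold changes of 0.36, 0.96, -0.03 and 0.96. The TRAIL receptors of lower level in shControl per kilobase of exon, *TNFRSF10A* at 0.491 and *TNFRSF10C* at 3.81 CPM per kb, were the ones called. On chromosome 2, *CFLAR*, *CASP10* and *CASP8* had 0.05, 0.18 and 0.40 within 246 kb. On chromosome 1, *TNFRSF1B* (12227048-12269285) had -1.07 beside *TNFRSF8* with -0.06, whereas *TNFRSF9* (7975931-8003225) and *TNFRSF14* (2487078-2496821) have no other member in the window. *TNFRSF11B* is at 119935796-119964124 of chromosome 8, *TNFSF13B* at 108903588-108960832 of chromosome 13 and *TRAF3* at 103243786-103377837 of chromosome 14.

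**Figure D4:**
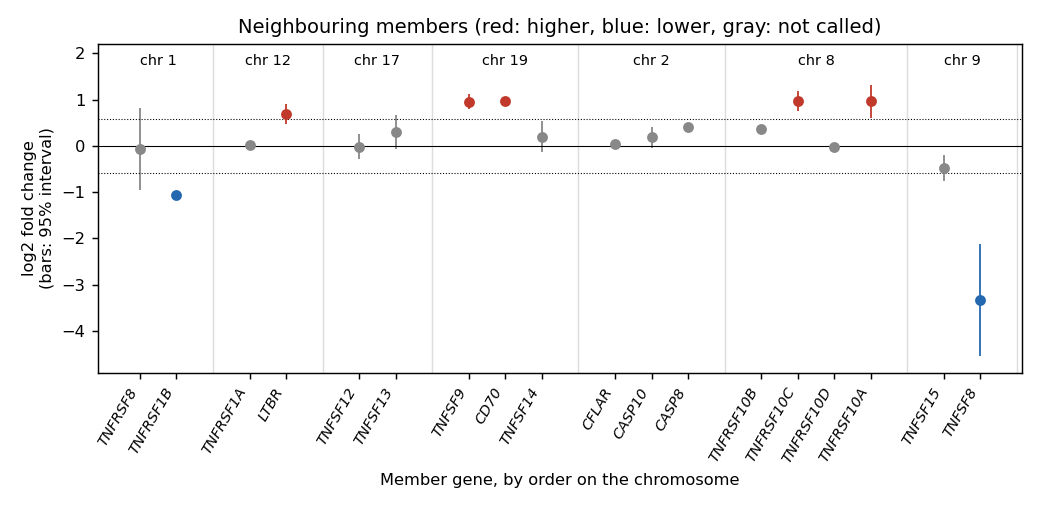
Log2 fold change (shKDM2B over shControl, with 95% intervals from the edgeR fit) of members that have another member within 500 kb, in genome order within each chromosome. *TNFSF9* and *CD70* on chromosome 19 sit together at 0.95 and 0.97, and the TRAIL receptors on chromosome 8 are at 0.36, 0.96, -0.03 and 0.96.

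Other genes of the pathway were taken from 7 lists with 76 names, of which 70 have a row and were tested. Of these 9 were called higher and 9 lower, or 12.9% each, beside 13.3% and 6.79% of all genes, so the share of higher genes was near that background. The median log2 fold change was -0.01. The list of genes known to be induced by TNF held most of them. Of its 18 genes, 5 were higher and 7 lower, so 12 of 18 were called beside 20.0% of all genes, with a median of 0.07. The higher genes were the chemokine *CCL2* (2.24), *TNFAIP2* (1.85), the adhesion molecule *ICAM1* (0.70), the NF-κB subunit *NFKB1* (0.63) and *TNFAIP6* (0.62). The lower genes were the chemokines *CCL20* (-2.25), *CXCL3* (-1.62), *CXCL2* (-1.31) and *CXCL8* (-0.98), with the prostaglandin synthase *PTGS2* (-1.53), the cytokine *IL6* (-1.09) and *IER3* (-0.88). *RELB* and *NFKB2*, which encode subunits of the noncanonical NF-κB dimer, had 0.57 and 0.29 and passed the adjusted p only. TNF-induced genes thus moved in both directions, also with ribosomal centring, where *IER3* no longer reached 1.5-fold (-0.54).

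The counts in the other lists are small and are read beside the same shares of all genes. Among the ubiquitin ligases and kinases, 1 of 17 (5.88%) was higher, *BIRC3* (1.25), which encodes the ligase c-IAP2 that works with TRAF2 and TRAF3, and none was lower. *CHUK*, which encodes the kinase IKKα, and *BIRC2*, which encodes the related ligase c-IAP1, had 0.52 and -0.44. Among the 11 deubiquitinases and other brakes, none was higher and 2 (18.2%) were lower, *CYLD* (-0.69), which removes ubiquitin chains from TRAF and RIPK1 complexes, and *USP21* (-0.60), whereas *OTULIN* and *TNIP1* had -0.56 and -0.53. With ribosomal centring *CYLD* and *USP21* had -0.34 and -0.25, less than 1.5-fold. In the caspase cascade 3 of 11 (27.3%) were higher and none lower, among the former the mitochondrial pore protein *BAK1* (0.80) and *APAF1* (0.75), which activates caspase-9. The initiator *CASP9* had -0.18. Sheddases release ligands and receptors from the membrane. None of the 5 family genes outside the symbol rule, the 3 necroptosis genes and the 5 genes of sheddases and their regulators was called. *EDA2R* and *RELT* in the first of these lists had 0.30 and -0.18, *PGAM5* and *ZBP1* in the second -0.41 and -0.13, and *FURIN* and *RHBDF2* in the third 0.55 and 0.20.

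**Figure D5:**
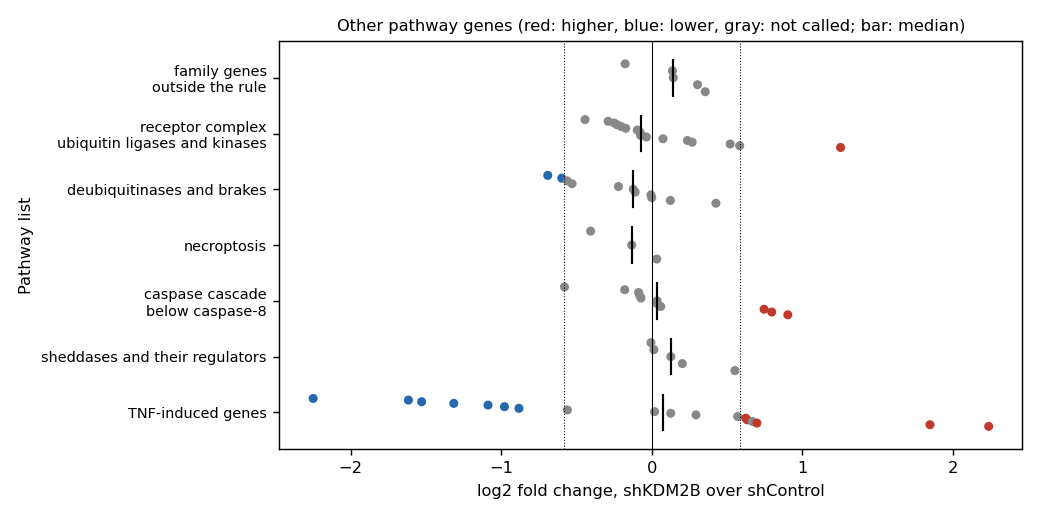
Log2 fold change (shKDM2B over shControl, edgeR) of the 70 tested pathway genes by list, 1 point per gene, with called genes in color and the 1.5-fold limits as dotted lines. The TNF-induced genes spread from -2.25 to 2.24. The family genes outside the rule, the necroptosis genes, and the sheddases with their regulators have no called gene.

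Because *TNFRSF9*, *CD70* and *TNFSF13B* are best known from blood cells, markers of leukocytes were read beside them. *PTPRC* had 3 to 10 counts in every library, and *CD3E*, *CD3D*, *MS4A1* and *CD14* have no row here. *ITGAM* had 2 to 12 counts. *CSF1R*, the receptor of a macrophage growth factor, was detected at 364 to 542 counts (12.5 to 15.5 CPM) and was not called (log2 fold change 0.17, adjusted p = 0.0776). It made up nearly all of the sum of the 3 of 8 leukocyte markers with a row, which was 13.3 to 13.8 CPM in shControl and 14.4 to 15.9 CPM in shKDM2B. The summed markers of endothelium (2 of 4 with a row) were 1.65 to 2.23 and 1.42 to 1.69 CPM, those of neurons (4 of 4) 51.8 to 53.7 and 44.6 to 44.7 CPM, and that of epithelium (1 of 3) 0.721 to 0.733 and 1.13 to 1.29 CPM. Markers of 1 list moved in opposite directions within these sums. *VWF* was called higher (1.31) and *TEK* lower (-1.32) for endothelium, and *GAD1* was called higher (0.79) and *SNAP25* lower (-0.81) for neurons. The epithelial marker *EPCAM* was called higher (0.73). The part of these differences in the members' values was not tested.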

How the data were processed

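Per the study's supplement, the authors made reads with CASAVA 1.8.2, aligned them to hg19 with TopHat2 2.0.11, handled them with SAMtools 0.1.19.0 and counted them per transcript on Ensembl annotation. Neither Ensembl release nor strand setting is given in the sources used here. The deposited table gives raw counts per gene and library, with 3 lanes combined. The authors' normalized values, a signal, are counts scaled by DESeq. Their deposited fold (a ratio), log2 fold change and p-value columns were not used.

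The raw counts were fitted with edgeR 4.0.16 in R 4.3.3 (TMM, no covariates). The common biological coefficient of variation was 2.62%, with 2 residual and 24.3 prior degrees of freedom. Replicates differed beyond counting noise, with 11.4% and 9.31% of genes at a chi-square p under 0.05. The fit was tested on simulated data. Python 3.11.15 (scipy 1.17.1, pandas 2.3.3, matplotlib 3.10.9) was used for intervals, tables and figures. Exon lengths, shared exonic bases and positions come from GENCODE on GRCh37, the assembly of hg19, and all 44 members were found in it.

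Members, lists and tests were chosen with earlier results of these data known. The text names every member, and of each pathway list the genes past both thresholds with up to 2 others of smallest adjusted p, except for items that are not reported here. Alternatives changed the scaling, count minimum, thresholds, tool (DESeq2 1.42.0), replicate block and library left out.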

Additional observations from a re-analysis of the deposited data

How the results depend on the processing

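The member counts stayed at 9 higher and 3 lower with DESeq2, with any 1 library left out and with the replicate number as a block. The libraries with the same number did not deviate together (correlation 0.05 over all genes), and with the block the pathway genes had 9 higher and 9 lower. Counts moved with thresholds and scaling. Members called higher and lower were 16 and 7 without a fold threshold, 3 and 2 at 2-fold, 8 and 2 with Bonferroni adjustment, 9 and 2 at a mean count of at least 50, 17 and 2 with ribosomal centring, and 6 and 3 without the 12 members sharing at least 10% of their exonic bases. Leaving out the readthrough row, an alternative chosen after seeing the data, gave 9 and 3. Pathway genes were 22 and 23 without a fold threshold, 3 and 5 at 2-fold, 18 and 6 with ribosomal centring, and 8 to 12 and 8 to 10 with 1 library left out. Over all genes DESeq2 called 2162 higher and 1275 lower, and ribosomal centring 6216 and 469, or 28.5% and 2.15%. *KDM2B* ranged from -1.67 to -1.25.

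Of the 12 called members, 5 were still called at 2-fold (*TNFRSF9*, *TNFRSF11B*, *TNFRSF14*, *TNFRSF1B* and *TNFSF8*) and 7 were not. Apart from that threshold, 9 passed under every alternative that tested them. *TNFSF8* (0.126) and *TNFRSF10A* (0.148) lost the call under Bonferroni adjustment, and *TRAF3* with ribosomal centring (-0.36). Ribosomal centring brought *TNFSF13* (0.64), *TNFRSF10B* (0.71), *TNFRSF21* (0.80), *CD40* (0.73), *TRAF4* (0.65), *CASP8* (0.75), *RIPK1* (0.70) and *TRADD* (0.74) past both thresholds. It turned the sign of *TNFSF12* and *TNFSF12-TNFSF13* (0.33), *FAS* (0.32), *TNFRSF25* (0.16), *TNFRSF10D* (0.31), *TNFRSF6B* (0.17), *TNFRSF12A* (0.31), *TNFRSF19* (0.10), *TNFRSF8* (0.28), *TRAF2* (0.21), *TRAF5* (0.28), *TRAF6* (0.34), *TRAF7* (0.10) and *FADD* (0.0733). All these log2 fold changes move by the shift of the reference genes, which is the alternative's construction. A minimum of 50 counts turned *TNFSF12* and *TNFSF12-TNFSF13* (0.0059), *FAS* (0.000265) and *TRAF6* (0.0207). With 1 library left out, the log2 fold change ranged from -0.10 to 0.0661 for *TNFSF12* and *TNFSF12-TNFSF13*, -0.0210 to 0.46 for *TNFSF14*, -0.0711 to 0.0176 for *FAS*, -0.0110 to 0.0337 for *TNFRSF1A*, -0.63 to 0.17 for *TNFRSF6B*, -0.0911 to 0.0163 for *TNFRSF12A*, -0.28 to 0.20 for *TNFRSF8*, -0.0268 to 0.20 for *TRAF1* and -0.0587 to 0.0466 for *TRAF6*. None of these genes was called. With 1 library in a group, its spread is assumed to be that of the other group. Genes of few counts, such as *TNF*, *TNFSF10* and *TNFSF4*, are limited by depth.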

Other observations

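Ratios between members that bind the same ligand or act on each other were formed from CPM per kb in each library, with pairs chosen after their values were seen. With 2 against 2 libraries an exact two-sided permutation test cannot go below p = 0.333, so the ratios are given as values. *TNFRSF1A* over *TNFRSF1B*, the receptors of TNF, was 0.787 ± 0.00241 in shControl and 1.66 ± 0.0617 in shKDM2B (SD, n = 2), so the more abundant receptor RNA was *TNFRSF1B* in shControl and *TNFRSF1A* in shKDM2B. The sum of the TRAIL receptors with a death domain over that of the decoys *TNFRSF10C* and *TNFRSF10D* was 1.29 ± 0.00671 and 1.53 ± 0.00766. This leaves out the secreted decoy *TNFRSF11B*, which also binds TRAIL and went from 2.38 to 5.25 CPM per kb, so a ratio with it would rise less. The ratio of *TNFRSF9* to its ligand *TNFSF9* was 0.0796 ± 0.0219 and 0.282 ± 0.0287, both below 1 with exon lengths of 6354 and 1634 bases. In CPM, without division by length, *TNFRSF9* and *TNFSF9* were at 3.27 and 10.7 in shControl and at 22.6 and 20.7 in shKDM2B. *CASP8* over its inhibitor *CFLAR* was 1.06 ± 0.0464 and 1.34 ± 0.0214, and *TRAF2* over *TRAF3* was 1.05 ± 0.00803 and 1.56 ± 0.102. The size of these ratios rests on the exon lengths over all isoforms. These were 7237 bases for *CASP8*, 22478 for *CFLAR*, 3665 for *TRAF2* and 11883 for *TRAF3*. In CPM, *CFLAR* (96.8 in shControl, 100.2 in shKDM2B) exceeded *CASP8* (32.9 and 43.4), and *TRAF3* (47.8 and 29.3) exceeded *TRAF2* (15.4 and 14.1). Each of the ratios per kb was higher in both shKDM2B libraries than in either control. Since the pairs were chosen with their values known, this shared direction is not a result of its own. Of all genes tested, 39.4% were higher in CPM in both shKDM2B libraries and 38.2% lower in both.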
